A study of Mus musculus with 12 samples.

Results

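Succinate dehydrogenase, or respiratory complex II, is built from 4 nuclear-encoded subunits, and their transcripts Sdha, Sdhb, Sdhc and Sdhd were followed in the striatum of mice carrying a control or an expanded huntingtin allele, with and without the glutamate receptor mGluR5. The members are the probe sets annotated to exactly 1 gene symbol that is one of these 4 names. Each gene had 1 such probe set, so 4 of the 19938 genes with a single-symbol probe set were taken, and all 4 were among the 16721 genes that passed the filter on low signal. The set was chosen with earlier results of these data in view, in which Sdhd was lower in Q111 than in Q20 striatum without mGluR5. The values of that contrast therefore chose the members and are given for them as a description, with no test.

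RNA of 12 striatal samples from male mice aged 90 days was hybridised to Affymetrix whole-transcript arrays, 3 per genotype. All mice were homozygous for a knock-in of the huntingtin gene, with either a short glutamine repeat (Q20, the control allele) or an expanded one (Q111, a Huntington's disease model), and were crossed to a line with or without a functional Grm5 gene, which encodes mGluR5. The 4 groups were HdhQ20/Q20/mGluR5+/+, HdhQ20/Q20/mGluR5-/-, HdhQ111/Q111/mGluR5+/+ and HdhQ111/Q111/mGluR5-/-, all on a background mixed from 129, CD-1, C57BL/6 and FV. Every group analysed here carries a knock-in allele. The labels do not say that the arrays of a group are separate mice, so the spread behind each p-value is that of these arrays and may be technical.

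Complex II is the enzyme that the citric acid cycle shares with the respiratory chain. It oxidises succinate to fumarate and hands the electrons to ubiquinone in the inner mitochondrial membrane. Sdha carries the flavin and the succinate site, Sdhb carries the iron-sulfur clusters, and Sdhc and Sdhd are the small membrane anchors that together hold the haem and the ubiquinone site. Loss of complex II activity has been described in the striatum in Huntington's disease, and inhibitors of the enzyme damage striatal neurons in animals.

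Values are log2 signals after RMA, a method that summarises and normalises the probes of a gene, so a difference of 1 is a doubling of signal. The medians of the arrays lay between 7.05 and 7.16. Grm5 itself was measured at a mean of 12.00 and 11.94 in the Q20 and Q111 groups with the receptor and at 11.06 and 11.07 in the knockouts. It fell by 0.94 ± 0.09 (SE, n = 3 per group; limma adjusted p = 0.000189) and by 0.87 ± 0.09 (limma adjusted p = 0.00017), so the label was borne out in all groups, with residual signal in the knockouts. All 10 measured markers of striatal projection neurons were above the 25th percentile of the arrays, including Drd2 at a mean of 12.06 and Penk, the enkephalin precursor, at 12.87.

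The start regions of the subunit genes are shown because Sdhd shares its start region with a gene whose signal is set beside it below, and 3 of the 4 genes could be compared by sequence. Nuclear genes of the respiratory chain often carry sites for the transcription factors NRF1 and GABP. The NRF1 motif, GCGCA followed by any base and GCGC, searched on both strands over the 250 bases before and 50 bases after each start, occurs in 4.6% of 32851 RefSeq promoter windows of mouse build GRCm38.p6. It was found 3 times in the window of Sdha, 1 time in that of Sdhd and not in that of Sdhb, and Sdhc has no entry in the table used here. Each match is printed 5′ to 3′ on the gene's strand, with the motif in capitals and 10 bases on each side, and positions count from the annotated start:
Sdha, from base -98, chr13:74350319-74350348, minus strand: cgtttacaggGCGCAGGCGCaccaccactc
Sdha, from base -55, chr13:74350276-74350305, minus strand: ggggcgtgttGCGCAGGCGCagaatcttcc
Sdha, from base -10, chr13:74350231-74350260, minus strand: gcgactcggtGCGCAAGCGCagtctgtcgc
Sdhd, from base -79, chr9:50603909-50603938, minus strand: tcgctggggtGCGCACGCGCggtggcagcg

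The ETS motif CCGGAAG, the core bound by GABP, occurs in 8.86% of the windows on either strand. It was found 1 time each in the windows of Sdhb and Sdhd, on the reverse strand in the latter, and not in that of Sdha. The matches are printed in the same way, with the motif or its reverse complement in capitals:
Sdhb, from base 7, chr4:140961267-140961293, plus strand: ctcggagaaaCCGGAAGcggccttcca
Sdhd, from base -46, chr9:50603879-50603905, minus strand: cgtctcctgcCTTCCGGttcacgcttc

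Sdhd lies head to head with Timm8b, which encodes a small chaperone of mitochondrial protein import, and only 51 bases separate the annotated starts. This stretch is shown whole because both genes are on the array and their signals are compared below:
Sdhd to Timm8b, chr9:50603850-50603900, minus strand: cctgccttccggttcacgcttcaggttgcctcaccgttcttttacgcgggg

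These matches describe letters in a window and are no measure of binding. Across the Q111 and Q20 arrays the anchors Sdhc and Sdhd differed in opposite directions, while the catalytic subunits Sdha and Sdhb differed little. These arrays include those of the contrast that chose the members. With mGluR5 alone, Sdhd differed by -0.21 ± 0.10 and its groups overlapped, where the SE is from the fit to all arrays. None of the 4 was called in any of the 3 contrasts in which they were tested, by limma over all 16721 genes at an adjusted p below 0.05. In bulk tissue, fewer cells of a type and less RNA per cell cannot be told apart.

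**Figure D1:**
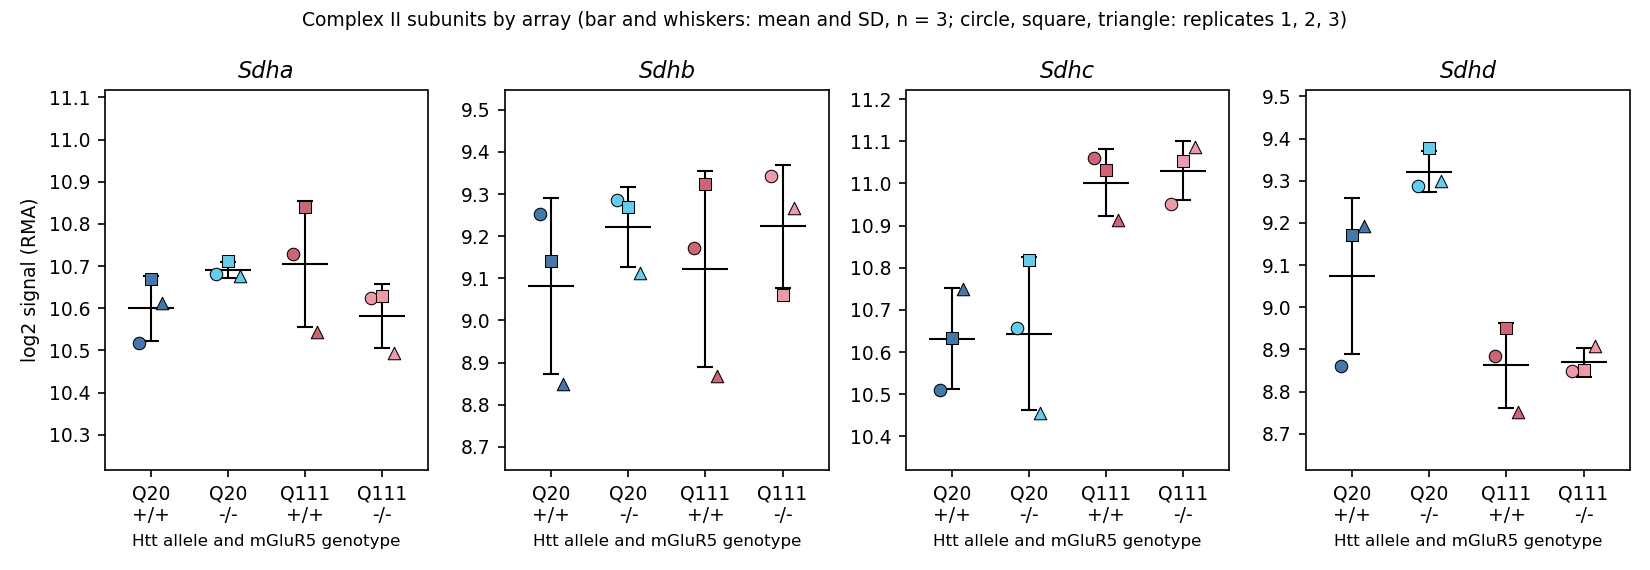
Log2 signal of the 4 complex II subunits on each of the 12 arrays by huntingtin allele (Q20 or Q111) and mGluR5 genotype (+/+ or -/-), with each panel spanning the same range of log2 units; the bar and whiskers are the mean and SD of 3 arrays. All 6 Q111 arrays lie above all 6 Q20 arrays for Sdhc, and for Sdhd only the Q20 array at 8.86 lies within the range of the Q111 arrays.

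Sdha (Entrez 66945), the flavoprotein that oxidises succinate, spans chr13:74322255-74350240 in GRCm38.p6. Its log2 signals were 10.52, 10.67 and 10.61 in Q20 with mGluR5 and 10.68, 10.71 and 10.68 in Q20 without it. In Q111 they were 10.73, 10.84 and 10.54 with mGluR5 and 10.62, 10.63 and 10.49 without it. The lowest and highest of the 12 arrays were both Q111 arrays, and the range of 0.35 was the smallest among the 4 subunits. With mGluR5, Sdha was 0.10 ± 0.09 higher in Q111 (SE; limma adjusted p = 0.958), and the groups overlapped. With 1 array left out this difference ran from 0.04 to 0.18. Without mGluR5 it was 0.11 lower (log2 difference -0.11 ± 0.09), and the groups did not overlap. The difference between the effects without and with mGluR5, which includes the contrast that chose the members, was -0.21 ± 0.13 and carries no test.

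Sdhb (Entrez 67680), the iron-sulfur subunit, spans chr4:140961271-140979198. It had 9.25, 9.14 and 8.85 in Q20 with mGluR5 and 9.29, 9.27 and 9.11 without. The Q111 arrays gave 9.17, 9.32 and 8.87 with mGluR5 and 9.34, 9.06 and 9.27 without. The lowest array in each group with mGluR5 was replicate 3, and the groups overlapped in all 4 contrasts. Sdhb differed between Q111 and Q20 by 0.04 ± 0.13 with mGluR5 (95% interval -0.24 to 0.32; limma adjusted p = 0.997) and by 0.00 ± 0.13 without (95% interval -0.28 to 0.28). These intervals are the widest of the 4 subunits, and differences within them were not detectable with 3 arrays a group.

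Sdhc (Entrez 66052), the larger membrane anchor, spans chr1:171129157-171150640. Its log2 signals were 10.51, 10.63 and 10.75 in Q20 with mGluR5 and 10.66, 10.82 and 10.46 without it. The Q111 arrays gave 11.06, 11.03 and 10.91 with mGluR5 and 10.95, 11.05 and 11.09 without. Every Q111 array was above every Q20 array in both receptor backgrounds. With mGluR5 the difference was 0.37 ± 0.10, or 1.29-fold, with a 95% interval from 0.15 to 0.59. Its unadjusted p was 0.00297, and after adjustment over all genes the difference was not called (limma adjusted p = 0.206). Of all genes tested, 0.574% were called in this contrast and 9.69% had groups that did not overlap. Without mGluR5, Sdhc was 0.39 ± 0.10 higher in Q111, given as a description.

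The difference between the Sdhc effects without and with the receptor was 0.02 ± 0.15, given as a description. Averaged over both receptor genotypes, Sdhc was 0.38 ± 0.07 higher on the 6 Q111 arrays, and the lowest of these stood 0.09 above the highest of the 6 Q20 arrays. Groups of 6 that do not overlap were found for 202 of the 16721 genes, or 1.21%, with 73 higher and 129 lower in Q111. This average includes the arrays of the contrast that chose the members and carries no test. The interquartile range of all values on an array ran from 2.56 to 2.95 among the 12 arrays. With it as a covariate, the Sdhc difference with mGluR5 was 0.41 ± 0.09 and passed the threshold (limma adjusted p = 0.0321). In that fit 266 of the 16721 genes were called in this contrast, against 96 in the main fit. Over all alternatives tried the adjusted p of Sdhc ran from 0.0321 to 0.821.

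Sdhd (Entrez 66925), the smaller membrane anchor, spans chr9:50596340-50603849. Its log2 signals were 8.86, 9.17 and 9.19 in Q20 with mGluR5, and 9.29, 9.38 and 9.30 in Q20 without it. In Q111 they were 8.89, 8.95 and 8.75 with mGluR5 and 8.85, 8.85 and 8.91 without it. The Q20 knockouts held the 3 highest values of the 12, and the Q111 groups were at like levels with and without mGluR5. Without mGluR5 the difference that chose the members was -0.45 ± 0.10, or 1.37-fold lower in Q111, and the groups did not overlap. In this contrast 0.885% of all genes were called and 19.1% had groups that did not overlap, and Sdha, Sdhc and Sdhd were among the latter.

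With mGluR5, in arrays that the contrast above does not use, Sdhd was 0.21 lower in Q111 (log2 difference -0.21 ± 0.10). The 95% interval ran from -0.43 to 0.00, the unadjusted p was 0.0503, and the difference was not called (limma adjusted p = 0.728). The SE, interval and p-values come from the fit to all arrays, so their spread includes the arrays that chose the members. In those arrays the SD of Sdhd was 0.049 in Q20 and 0.034 in Q111, against 0.185 and 0.10 with mGluR5. Only the difference itself is free of the choosing arrays. The groups with mGluR5 overlapped because replicate 1 of Q20, at 8.86, was the lowest of the Q20 arrays. The difference between the Q111 effects without and with mGluR5 was -0.24 ± 0.14, given as a description because it contains the contrast that chose the members. Averaged over both receptor genotypes, Sdhd was 0.33 lower in Q111 (-0.33 ± 0.07), and the only Q20 array within the Q111 range was the one at 8.86.

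**Figure D2:**
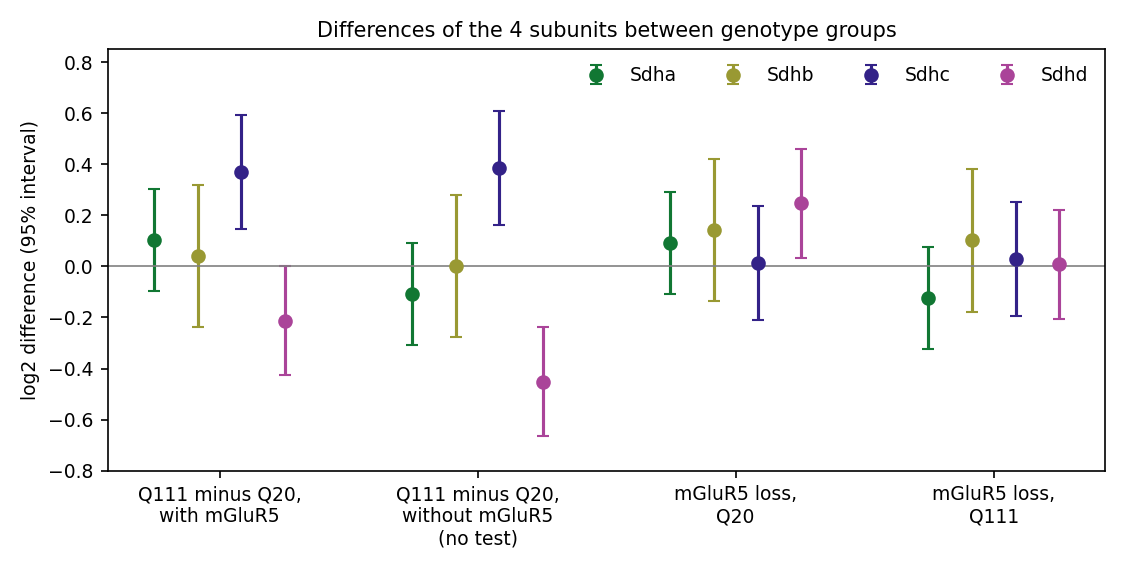
Log2 differences of the 4 subunits in the 4 contrasts, with 95% intervals from the fit to all 12 arrays; the contrast without mGluR5 chose the members and carries no test. Sdhc is above 0 and Sdhd below 0 in both Q111 contrasts, at 0.37 and -0.21 with mGluR5.

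Loss of mGluR5 was compared within each huntingtin allele to see whether the receptor itself goes with a change in the subunits. These contrasts share 1 group each with the contrast that chose the members. In Q20 striatum all 4 subunits had a positive difference, from 0.01 ± 0.10 for Sdhc through 0.09 ± 0.09 for Sdha and 0.14 ± 0.13 for Sdhb to 0.25 ± 0.10 for Sdhd, where 57% of all genes tested were positive. Sdhd was higher in all 3 Q20 knockouts than in any Q20 array with the receptor, and was not called (limma adjusted p = 0.717). These 3 arrays are also the high side of the contrast that chose the members, so the choice itself favours a positive Sdhd difference here. Leaving out the Q20 array at 8.86 made this difference 0.14, so 1 array moved it by more than 1.5 times. With 1 array left out, Sdhb ran from 0.026 to 0.23 and Sdha from 0.049 to 0.13. Sdha was also higher without overlap, where 12.8% of all genes did not overlap and 0.299% were called. In Q111 striatum the subunits differed by -0.12 ± 0.09 (Sdha), 0.10 ± 0.13 (Sdhb), 0.03 ± 0.10 (Sdhc) and 0.01 ± 0.10 (Sdhd), and with 1 array left out Sdha ran from -0.20 to -0.055. All of these groups overlapped, none was called, and none had an unadjusted p below 0.05, where 0.275% of all genes were called and 7.46% did not overlap.

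Over the 12 arrays the 4 subunits did not follow each other closely. Sdhc and Sdhd had a Pearson correlation of -0.566, Sdha and Sdhd 0.377, Sdha and Sdhb 0.294, and the remaining pairs lay between 0.069 and 0.101. These are descriptions over arrays that share the 4 genotypes. The genes with signals most like Sdhd were Rnf6, which encodes a ubiquitin ligase (r = 0.960), Sh3yl1 (0.936) and Pfdn2, a subunit of the prefoldin chaperone (0.932). Those most like Sdhc were Gba2, a glucosylceramidase outside the lysosome (0.927), Tmem141 (0.926) and Ccdc122 (0.916). Sdha was followed most closely by Spred1, an inhibitor of Ras signalling (0.953), Zbtb11 (0.944) and Ap4b1 (0.933). Sdhb was followed by Tuba1a, an alpha tubulin (0.965), Nrbf2 (0.942) and Rps12, a ribosomal protein (0.933). None of these 12 genes belongs to complex II or to the pathway lists below.

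The genes on either side of each subunit were examined to see whether a difference was that of the subunit alone or of the genes around it as well. The labels give a mixed background and no strain of origin for any locus. Among the 5 tested genes on each side of Sdhd on chromosome 9, 8 of 10 had a negative Q111 difference with mGluR5 and 8 of 10 without. Of all genes tested, 45.9% and 43.3% had a positive difference in these contrasts. Pts, which makes the cofactor tetrahydrobiopterin, fell by 0.59 ± 0.12 without mGluR5 (limma adjusted p = 0.0308) and differed by -0.38 ± 0.12 with it (adjusted p = 0.317). The call was met in 6 of 12 fits with 1 array left out. Where that array was from a group not compared, the difference itself could not change. The same holds for the counts of such fits given below for other genes. Il18, the cytokine gene next to Sdhd, had -0.18 ± 0.10 and -0.24 ± 0.10 with and without the receptor, and was not called.

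Timm8b, which shares the 51 bases printed above with Sdhd, differed by 0.08 ± 0.08 with mGluR5 and by -0.04 ± 0.08 without (adjusted p = 0.974 and 0.920). Its signals without the receptor were 9.46, 9.47 and 9.30 in Q20 and 9.36, 9.39 and 9.35 in Q111, which overlap, whereas those of Sdhd do not. Sdhd was chosen for its difference in that contrast, and with mGluR5 the groups of both genes overlap. Further out, and chosen after its values were seen, the small heat shock protein gene Cryab was called in both receptor backgrounds. It fell by 0.54 ± 0.11 with mGluR5 (limma adjusted p = 0.0301) and by 0.50 ± 0.11 without (adjusted p = 0.0401), and these calls were met in 6 and 3 of 12 fits with 1 array left out.

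**Figure D3:**
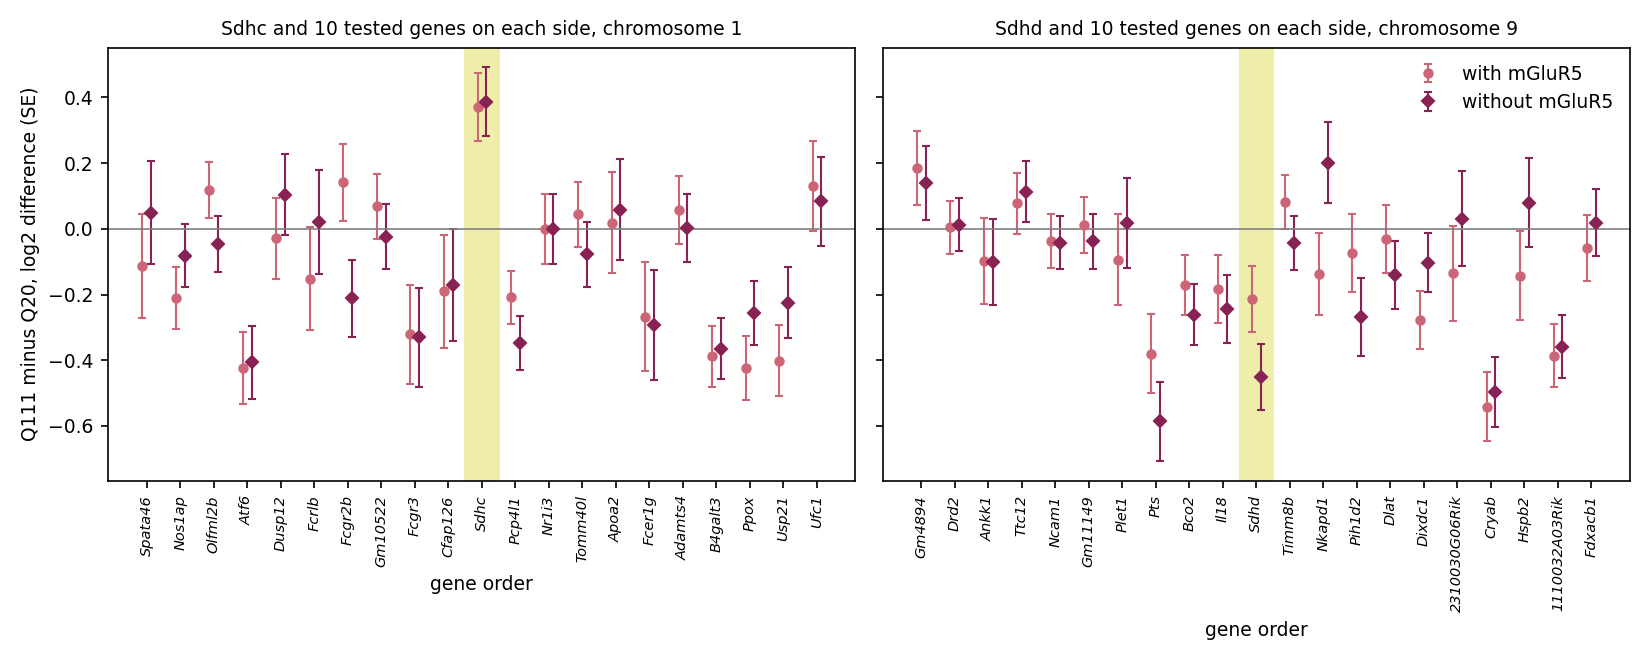
Log2 difference between Q111 and Q20 arrays, with its SE, for Sdhc and Sdhd (shaded) and for 10 tested genes on each side in gene order, with mGluR5 (circles) and without (diamonds). Sdhc stands above its neighbours at 0.37 and 0.39, while Pts at -0.38 and -0.59 and Cryab at -0.54 and -0.50 are as low as Sdhd.

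Around Sdhc on chromosome 1, 6 of 10 neighbours had a negative Q111 difference with mGluR5 and 7 of 10 without, and none was called. Positive differences were found in 45.9% and 43.3% of all genes tested. The nearest were Cfap126, a gene of motile cilia, at -0.19 ± 0.17 and -0.17 ± 0.17, and Pcp4l1, a relative of the calmodulin-binding Pcp4, at -0.21 ± 0.08 and -0.35 ± 0.08 (adjusted p = 0.541 and 0.0607). Every Q111 array was below every Q20 array for Pcp4l1 in both backgrounds, the opposite direction to Sdhc. Further out, and also chosen after their values were seen, 3 genes were lower without overlap in both backgrounds. They were Atf6 (-0.42 and -0.41), B4galt3 (-0.39 and -0.36) and Ppox (-0.42 and -0.26). None was called, the lowest limma adjusted p being 0.0785 for Ppox with mGluR5. Of all genes tested, 9.69% had groups that did not overlap with mGluR5 and 19.1% without. The share in both backgrounds was not counted, so these 3 are not read as a result about the region. Adamts4 and Ufc1, also further out, were positive in both. Next to Sdhb, Padi2, which converts arginine to citrulline in myelin and other proteins, had 0.26 ± 0.14 and 0.59 ± 0.14 (adjusted p = 0.788 and 0.0593), and Atp13a2, a lysosomal transporter, -0.04 ± 0.09 and 0.05 ± 0.09. Next to Sdha, Pdcd6 and Ccdc127 differed by at most 0.11 in size. No gene among the 10 around Sdha or around Sdhb was called in any of the 4 contrasts.

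The other genes that complex II depends on were grouped by role into 12 lists of 112 genes, of which 105 were tested. With limma, none was called in Q111 with mGluR5, and none for loss of mGluR5 in Q20 or in Q111, against 6, 4 and 4 genes at an unadjusted p below 0.05. Without mGluR5, 1 gene was called higher in Q111 and none lower, with 10 at an unadjusted p below 0.05. As 0.885% of all genes were called in that contrast, 1 of 105 is a share near the background and not a result about the lists. The share of all genes at an unadjusted p below 0.05 was not counted, so those counts are not read as a result either. The medians of the 105 were -0.03, -0.08, 0.10 and 0.04 in the order Q111 with mGluR5, Q111 without, loss in Q20 and loss in Q111, where those of all genes were -0.01, -0.02, 0.02 and 0.01. Positive differences were found in 40%, 23.8%, 84.8% and 63.8% of the 105, beside 45.9%, 43.3%, 57% and 52.6% of all genes.

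The called gene was Sucnr1, the cell surface receptor for succinate. Its log2 signals without mGluR5 were 6.11, 6.42 and 6.34 in Q111 and 5.85, 5.68 and 5.68 in Q20, so it was higher by 0.55 ± 0.12 (limma adjusted p = 0.0364). The call was met in 4 of 12 fits with 1 array left out, with differences from 0.49 to 0.64. With mGluR5 the Sucnr1 signals were 5.89, 5.59 and 5.98 in Q111 and 5.63, 5.83 and 5.62 in Q20, which overlap (0.13 ± 0.12; adjusted p = 0.955). These are low signals, near the 25th percentile of the arrays of 5.69 to 5.94. The 3 Q111 arrays without mGluR5 lie above that whole range and by themselves meet the filter on low signal. The group in which Sucnr1 is high can thus have brought it into the test, so its call is a description. The difference between the Q111 effects without and with mGluR5 was 0.42 ± 0.17 and did not pass (limma adjusted p = 0.767). Of the other 3 genes that supply or carry succinate, Aldh5a1, the succinic semialdehyde dehydrogenase of GABA breakdown, had -0.15 ± 0.11 and -0.21 ± 0.11 and was not called.

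The 4 assembly factors of complex II, Sdhaf1 to Sdhaf4, were not called in any contrast. In Q111 with mGluR5 all 4 had small positive differences, from 0.04 for Sdhaf3 to 0.08 for Sdhaf4. Without mGluR5, 3 of 4 were negative, with Sdhaf4, which acts on Sdha, lowest at -0.14 ± 0.12. For loss of mGluR5 in Q20, Sdhaf3 was 0.18 ± 0.09 higher and did not overlap (limma adjusted p = 0.888).

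Among 13 genes for iron-sulfur clusters and flavin, Nfu1, which delivers clusters to mitochondrial enzymes, had the largest differences of the 105 genes in both Q111 contrasts. Its log2 signals with mGluR5 were 7.67, 8.24 and 7.55 in Q111 and 8.40, 8.71 and 8.72 in Q20. Without mGluR5 they were 7.90, 7.98 and 7.45 in Q111 and 8.87, 8.84 and 7.93 in Q20, where 1 Q20 array lay within the Q111 range. The differences were -0.79 ± 0.23 and -0.77 ± 0.23 and were not called (limma adjusted p = 0.238 and 0.189), the SE being more than that of any of the 4 subunits. Slc25a32, the mitochondrial carrier for folate and flavin, had 0.29 ± 0.10 in Q111 with mGluR5 (adjusted p = 0.387) and 0.31 ± 0.10 for loss of mGluR5 in Q20 (adjusted p = 0.397).

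In the citric acid cycle, 11 of 13 genes were negative in Q111 without mGluR5, among them Suclg2, a subunit of the succinyl-CoA ligase that makes succinate, at -0.22 ± 0.12. Idh2, the NADP-dependent isocitrate dehydrogenase, had -0.21 ± 0.09 in Q111 with mGluR5, without overlap (limma adjusted p = 0.610). Of 8 other dehydrogenases that reduce ubiquinone, Sqor, which oxidises sulfide, was lower without overlap in both Q111 contrasts, at -0.22 ± 0.09 and -0.24 ± 0.09 (adjusted p = 0.564 and 0.323). Dhodh, of pyrimidine synthesis, differed by at most 0.16. In ubiquinone synthesis, 8 of 10 genes were negative in Q111 without mGluR5, with Coq3 at -0.24 ± 0.11 and Coq2 at 0.15 ± 0.10 as the ends of the range.

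The other respiratory complexes also gave no called gene. All 6 core subunits of complex I and all 8 subunits of ATP synthase had positive differences for loss of mGluR5 in Q20, with medians of 0.12 and 0.13, and again in Q111, with medians of 0.08 and 0.09. Ndufs1 had 0.16 ± 0.12, Ndufs3 0.13 ± 0.09 and Atp5a1, the ATP synthase alpha subunit, 0.18 ± 0.08 in Q20. In complex III, Uqcrb was 0.38 lower in Q111 without mGluR5 (-0.38 ± 0.12; limma adjusted p = 0.220), and Uqcr10 was 0.33 ± 0.12 higher in Q111 with it (adjusted p = 0.457). In complex IV, Cox6c had 0.33 ± 0.08 for loss of mGluR5 in Q20 (adjusted p = 0.125), and Cox6a1 had 0.38 ± 0.14 for the loss in Q111 (adjusted p = 0.791).

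**Figure D4:**
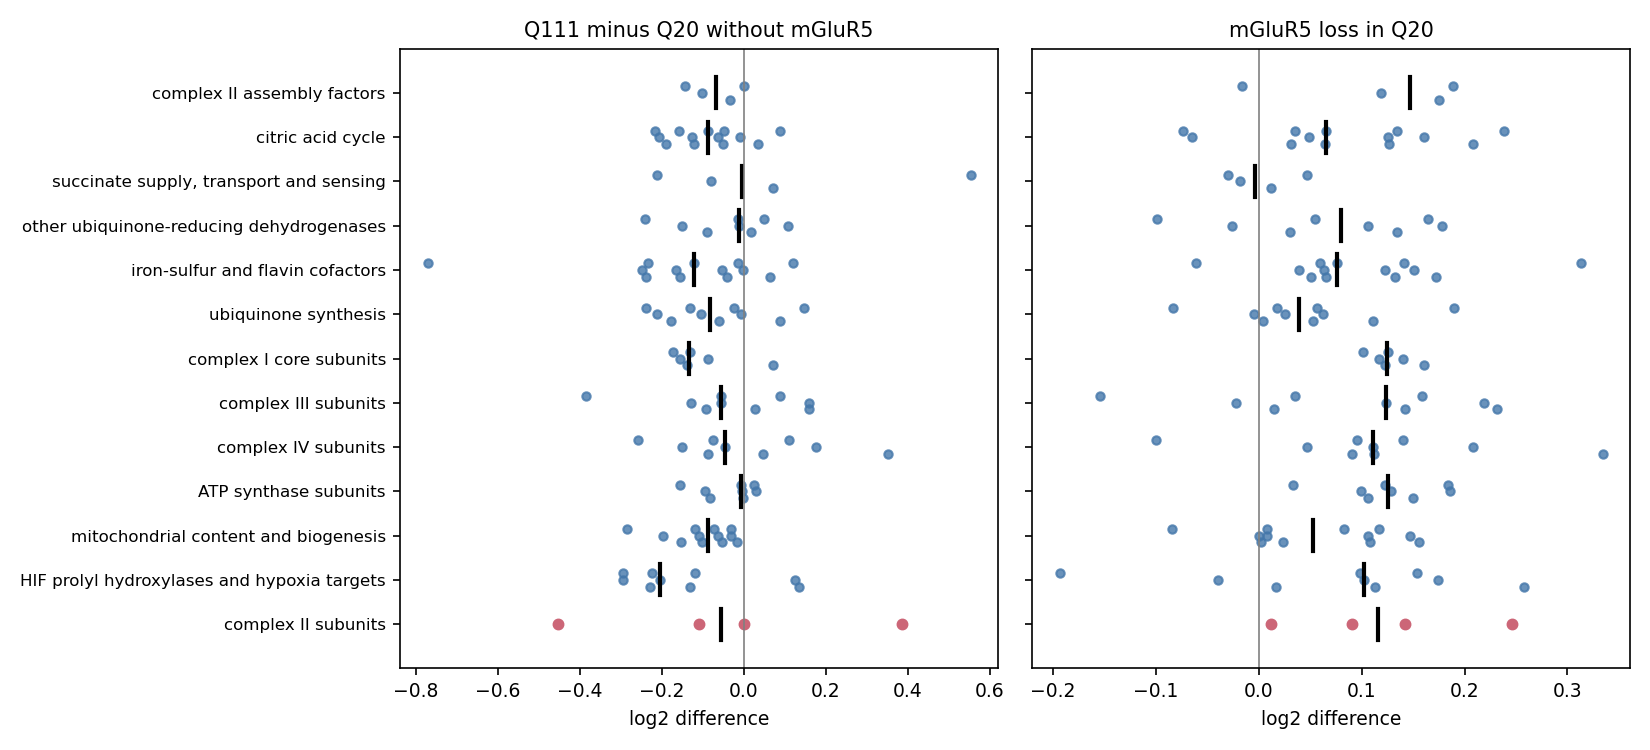
Log2 differences of every tested gene in the 12 pathway lists (blue points) and of the 4 complex II subunits (red points), for Q111 minus Q20 without mGluR5 (left) and for loss of mGluR5 in Q20 (right); black bars are list medians. Most lists lie below 0 on the left and above 0 on the right; both panels use the Q20 knockout arrays, and Sucnr1 at 0.55 is the 1 called gene.

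The Q20 arrays without mGluR5 are the control of the Q111 contrast and the test group for loss of mGluR5 in Q20, so higher signals on these 3 arrays give negative values in the former and positive ones in the latter. All 12 genes of mitochondrial content and biogenesis were negative in Q111 without mGluR5, with a median of -0.09, and 11 of 12 were positive for the loss in Q20, with a median of 0.05. They include Gabpa, the DNA-binding subunit of GABP, at -0.28 ± 0.15, and Nrf1 at -0.11 ± 0.08 in the former. With mGluR5, in other arrays, 9 of the 12 were negative, with a median of -0.07. None of these was called in any contrast.

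Succinate can inhibit the prolyl hydroxylases that mark hypoxia-inducible factor for breakdown, so these enzymes and targets of the factor were counted as well. In Q111 without mGluR5, 7 of 9 were negative, with a median of -0.20 and none called. Slc2a1, the glucose transporter, had -0.29 ± 0.09 (limma adjusted p = 0.237) and Bnip3, a mitophagy receptor, -0.22 ± 0.10 (adjusted p = 0.502). With mGluR5 the same genes had -0.15 ± 0.09 and -0.04 ± 0.10, and the list median was -0.03.

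Markers of the cell types in a striatal dissection were set beside the subunits. No marker was called in any of the 4 contrasts. The mean signal of the 10 markers of striatal projection neurons lay between 11.28 and 11.41 in Q111 with mGluR5 and between 11.33 and 11.42 in Q20 with it. Without the receptor it lay between 11.35 and 11.40 in Q111 and was 11.44 on every Q20 array. Endothelial and mural markers were negative in 8 of 8 in Q111 with mGluR5, at a median of -0.22, and in 7 of 8 without, at -0.18. Their mean signals lay between 7.46 and 7.73 in Q111 and between 7.65 and 7.86 in Q20 with mGluR5, and between 7.62 and 7.81 in Q111 and between 7.78 and 7.80 in Q20 without it.

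Microglial markers were negative in 7 of 8 in Q111 without mGluR5, where their mean signals lay between 8.19 and 8.26 against 8.29 and 8.53 in Q20, and in 5 of 8 with mGluR5. Myelin markers were positive in 5 of 7 in both Q111 contrasts, at medians of 0.08 and 0.15. Astrocyte markers were negative in 4 of 7 in both Q111 contrasts. Choroid plexus markers were negative in 5 of 6 in Q111 without mGluR5, down to -1.49 for Ttr, and in 2 of 6 with it. Cortical markers were positive in 3 of 5 in both. Markers of thalamus and hypothalamus were positive in 1 of 6 with mGluR5 and in 4 of 6 without. Whether the makeup of the tissue has a part in the Sdhc and Sdhd differences was not tested.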

How the data were processed

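The analysis started from the table of log2 values that the authors deposited for 35556 probe sets on 12 arrays. The log2 values come from RMA in Partek, per the submitters' processing notes, and the series text names Partek Genomics Suite 6.5. The steps from scan to table, other than these, are not given in the sources used here. Intensity files and detection calls were not used here, so precision is limited by 3 arrays per group.

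Probe sets were named from the platform annotation: 21789 have 1 gene symbol, 1621 several and 12146 none. A gene was represented by its single-symbol probe set with the highest mean, and was tested where it exceeded the 25th percentile of its array on at least 3 arrays. limma 3.58.1 in R 4.3.3 was fitted to all 12 arrays with 1 mean per group (8 residual and 6.88 prior degrees of freedom), two-sided, with Benjamini-Hochberg adjustment over 16721 genes and calls at an adjusted p below 0.05. Errors of differences are SE from this fit. The fit was tested on simulated data. Positions and start regions are from RefSeq (GRCm38.p6), which placed 16709 tested genes and held start regions for 3 of the 4 members.

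The members, the gene lists and the tests were chosen with earlier results of these data known. Named genes were the members, in each list any called gene and the 2 with the smallest unadjusted p, the nearest tested gene on each side of a member and any called gene among 5 on each side, and the 3 genes most correlated with each member. Genes further out than 5 from Sdhd or Sdhc were named after their values were seen. Predicted genes, clones, receptors of smell and small RNAs were not named. Alternatives were the variance model, arrays in the fit, a replicate block, array weights, spread as a covariate, 2 rescalings, the filter, probe set choices, the criteria of the series text (unmoderated p below 0.05 and 1.5-fold), and leaving out each array.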

Additional observations from a re-analysis of the deposited data

Results flagged for a closer look

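3 pathway genes had Q111 differences in opposite directions with and without mGluR5, with groups that did not overlap in either background. For this 189 genes were looked at. Of all genes tested, 9.69% had groups that did not overlap with mGluR5 and 19.1% without. The share of all genes with the opposite pattern was not counted, so 3 of 189 is not read as a result about these genes. Uqcr11, a small subunit of complex III, was -0.30 ± 0.12 with the receptor and 0.16 ± 0.12 without, and the difference between both was 0.46 ± 0.16 (limma adjusted p = 0.654 for the interaction). Cox6c, a subunit of complex IV, was 0.15 ± 0.08 and -0.15 ± 0.08, with a difference of -0.30 ± 0.11 (limma adjusted p = 0.748). Egln1, a prolyl hydroxylase of hypoxia-inducible factor, was 0.13 ± 0.08 and -0.13 ± 0.08, with a difference of -0.26 ± 0.11 (limma adjusted p = 0.848), and its 3 arrays per group also moved in opposite directions when mGluR5 was lost, at 0.10 ± 0.08 in Q20 and -0.16 ± 0.08 in Q111. None passed the test of the difference, and groups of 3 were not examined for outlying arrays.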

How the results depend on the processing

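No subunit was called in the 3 tested contrasts, and this held under all alternatives except 2. With the interquartile range as a covariate 1 subunit was called in Q111 with mGluR5 (Sdhc), and with array weights 1 was called for loss of mGluR5 in Q20 (Sdhb, limma adjusted p = 0.0298). The weights did not converge, and 3270 genes were then called in Q111 without mGluR5 against 148. Sdhc for loss of mGluR5 in Q20, 0.01, became -0.038 with array weights, -0.0028 with the covariate, -0.010 with a second quantile normalization, and ran from -0.075 to 0.11 with 1 array left out. Other differences near 0 also changed sign with 1 array left out: Sdhb from -0.075 to 0.17 in Q111 with mGluR5 and from -0.025 to 0.20 for the loss in Q111, where Sdhc ran from -0.016 to 0.068 and Sdhd from -0.048 to 0.051. In Q111 with mGluR5, Sdhc stayed between 0.28 and 0.43 and Sdhd between -0.32 and -0.15 under all alternatives. Without mGluR5, Sdhd stayed between -0.47 and -0.40 and Sdhc between 0.29 and 0.47. The causes were not tested.

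Same-numbered arrays correlated over 0.1 in 11 of 18 pairs, from -0.144 to 0.567, with a median of 0.28 against -0.084 for other pairs, and all 6 pairs of replicate 2 lay between 0.339 and 0.567. Replicate 2 also had the highest interquartile range in each group (2.88, 2.95, 2.93 and 2.80). As not every pair was over 0.1 and the labels give no pairing, the main fit has no replicate block. Whether same-numbered arrays share more than a number was not tested. Each replicate number occurs 1 time in every group, so a replicate block cannot change the differences of the subunits, only their SE and p-values. They thus stay at 0.37 for Sdhc and -0.21 for Sdhd in Q111 with mGluR5. With the block, 0 subunits were called in the 3 tested contrasts. In all, 204, 343, 129 and 103 genes were then called, against 96, 148, 50 and 46.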
